A study of Mus musculus with 77 samples.

Results

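In activated follicular B cells, 128 stretches of the autosomes lay under peaks of both H3K27me3, the silencing mark of Polycomb repressive complex 2, and H3K27ac, the mark of active promoters and enhancers. They were chosen by the deposited peak lists of 1 group, splenic CD23+ B cells of female WT (mb1-cre+) mice after 24 h with CpG: a stretch of at least 500 bp had to lie under H3K27me3 peaks in at least 3 of 4 lists and under H3K27ac peaks in at least 2 of 3. The 128 stretches came to 338.4 kb, which was 0.284% of the 119.3 Mb that passed the H3K27me3 part of the rule and 0.362% of the 93.5 Mb that passed the H3K27ac part. The other stretches of those autosomal sets, 9144 with H3K27me3 only and 8723 with H3K27ac only, served as comparators, so that the 128 were part of 17995 stretches in all. Because those 7 lists chose the stretches, H3K27me3 and H3K27ac in that group are given as a description, without a test. H2AK119Ub, the mark of Polycomb repressive complex 1, took no part in the choice.

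The series profiled the 3 marks by CUT&RUN, in which an antibody directs a nuclease to the marked nucleosomes, in 77 libraries of female CD23+ splenic B cells. In the mb1 system, Xist fl/fl ; mb1-cre+ mice were set against WT (mb1-cre+) mice, so both genotypes carried a Cre that is active in the B lineage, and their cells were profiled unstimulated (0 h) or once they had spent 24 h in 1 µM CpG, DNA that Toll-like receptor 9 recognises. In the TAT system, cells came from WT and Xist fl/fl mice whose labels name no mb1-cre, and were taken unstimulated or met 80 µg of TAT-cre, a recombinase that enters cells by itself, for 45 min before 24 h of CpG, so both genotypes met the enzyme at 24 h and neither did at 0 h, where the labels name no Cre for Xist fl/fl cells. Each mark had 3 libraries per group, except H3K27me3 in the mb1 system, where WT had 4 at either time and Xist fl/fl had 5 at 0 h and 4 at 24 h. The replicates are biological by their labels, which tie none of them to an animal, and a p-value here weighs only how far these samples lie apart. H3K27me3 lists had from 1955 up to 19074 peaks, H2AK119Ub lists 2004 to 40688 and H3K27ac lists 1336 to 10393. No source used here gives the read depth, which therefore cannot be told apart from list length. The mb1 lists at 24 h covered more of the autosomes than the TAT lists at 24 h for H3K27me3 (105.6 to 196.2 Mb against 34.5 to 59.8 Mb) and for H3K27ac (80.7 to 119.7 Mb against 31.8 to 80.5 Mb), which bears on each comparison of systems below.

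H3K27me3 and H3K27ac occupy the same residue of histone H3 and exclude each other on 1 histone tail. In a bulk library, peaks of both at 1 place can come from different cells, alleles or nucleosomes, and a peak list cannot tell these apart, nor fewer marked cells from less of the mark per cell. Polycomb repressive complex 1 ubiquitinates histone H2A, and the complex that places H3K27me3 binds that mark, so that both marks usually lie together over silent developmental genes. In B cells, CpG signals through NF-kB and opens enhancers of activation genes, while developmental genes stay under Polycomb. The labelled cell type was set beside gene lists, which were chosen with earlier results of these data known and so give no independent check. Of 32 follicular and mature B cell genes, 32 touched an H3K27ac-only stretch and 0 an H3K27me3-only stretch, and of 67 developmental Polycomb targets 67 touched an H3K27me3-only stretch and 0 an H3K27ac-only stretch. H3K27ac-only stretches touched 3 of 19 T cell genes, 4 of 18 myeloid, 1 of 10 NK cell and 1 of 8 erythroid genes that were matched. Of all 20665 autosomal protein-coding genes, 31.9% touched an H3K27ac-only and 27.3% an H3K27me3-only stretch.

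Of the 128 stretches, 30 held a transcription start, and 5 of those are shown as examples of the kinds of overlap described below: Atf3, where an island of H3K27ac lay inside an H3K27me3 domain; Nr4a3, Fyn and Sec62, where the edges of a domain of each mark overlapped; and Hjurp, marked in every group. Each line gives the 250 bases before the start, 5′ to 3′ on the gene's strand, from RefSeq on GRCm38.p6, the assembly named mm10 in the submitters' processing notes. Capitals mark each CG dinucleotide, the target of DNA methylation, whose dense clusters recruit Polycomb complexes when the gene is silent.
Atf3: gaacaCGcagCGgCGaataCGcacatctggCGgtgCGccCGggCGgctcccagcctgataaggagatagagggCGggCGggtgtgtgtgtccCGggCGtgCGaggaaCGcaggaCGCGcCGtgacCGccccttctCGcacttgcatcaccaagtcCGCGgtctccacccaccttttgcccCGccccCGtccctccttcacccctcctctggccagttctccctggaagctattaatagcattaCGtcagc
Nr4a3: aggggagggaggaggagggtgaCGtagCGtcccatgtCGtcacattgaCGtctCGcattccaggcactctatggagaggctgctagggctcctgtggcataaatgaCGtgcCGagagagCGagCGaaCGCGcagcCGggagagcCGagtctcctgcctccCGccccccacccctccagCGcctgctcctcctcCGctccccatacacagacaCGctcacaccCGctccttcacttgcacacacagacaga
Fyn: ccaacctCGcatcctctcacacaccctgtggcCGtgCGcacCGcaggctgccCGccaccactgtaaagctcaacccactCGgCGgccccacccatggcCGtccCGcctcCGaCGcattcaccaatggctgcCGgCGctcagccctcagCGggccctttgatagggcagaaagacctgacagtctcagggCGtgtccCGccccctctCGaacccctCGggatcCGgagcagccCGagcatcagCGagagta
Hjurp: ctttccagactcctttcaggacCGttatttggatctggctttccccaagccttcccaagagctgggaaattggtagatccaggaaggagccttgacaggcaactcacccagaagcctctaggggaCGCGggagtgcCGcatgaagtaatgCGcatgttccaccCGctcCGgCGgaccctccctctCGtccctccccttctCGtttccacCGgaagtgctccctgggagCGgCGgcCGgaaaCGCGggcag
Sec62: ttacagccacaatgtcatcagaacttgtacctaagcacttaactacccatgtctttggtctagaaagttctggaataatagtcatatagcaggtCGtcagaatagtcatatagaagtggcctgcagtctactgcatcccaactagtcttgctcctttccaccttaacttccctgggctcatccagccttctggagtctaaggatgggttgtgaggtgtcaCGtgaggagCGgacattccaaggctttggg
These windows lie at chr1:191183334-191183583 on the minus strand, chr4:48045055-48045304 on the plus strand, chr10:39369549-39369798 (plus), chr1:88277580-88277829 (minus) and chr3:30792626-30792875 (plus). They hold 24, 18, 21, 16 and 3 CG in that order, so Sec62 was poor in CG and the other 4 were rich. In the supplied table, 34 genes had 40 promoter windows of 300 bases (250 before the start and 50 after) whose start lay in a stretch. Of those 40 windows, 34 (85%) held at least 10 CG, a match that reads the same on both strands. The share was 44.0% of 31396 autosomal windows, 61.4% of 5003 with a start in an H3K27me3-only stretch and 78.0% of 6406 with a start in an H3K27ac-only stretch.

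Most of the 128 were edges. In 90 (70.3%) a domain of H3K27me3 ended on one side and a domain of H3K27ac on the other, so that the doubly marked part was a border with a median length of 1268 bp (506 to 7876 bp) and made up a median of 12.1% of the H3K27me3 domain and 24.5% of the H3K27ac domain. In 26 the whole H3K27ac domain lay inside H3K27me3, with a median length of 3726 bp and 26.3% of the H3K27me3 domain. In 12 the whole H3K27me3 domain lay inside H3K27ac, with a median length of 3189 bp and 87.6% of the H3K27ac domain. The domains coincided, with at least 80% of each under the other, in 16 stretches: 3 borders, 6 with H3K27ac inside and 7 with H3K27me3 inside. The shortest stretches inside the length limit were 506, 514 and 534 bp long, and the longest left out were 483, 471 and 467 bp, among 38 overlaps that were too short. Without the third H3K27ac list the rule gave 80 stretches and without the first H3K27me3 list 85. The rule still asked for 2 H3K27ac and 3 H3K27me3 lists, so leaving out any list made it stricter. Over the 7 lists left out in turn the number was 80 to 100.

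H2AK119Ub ran across the borders, whose order of the other marks the choice had set. In TAT WT libraries at 24 h, which had no part in the choice, H3K27me3 covered 47.4% ± 17.9 (SD, n = 3) of the 2 kb on the H3K27me3 side, 39.5% ± 14.8 of the stretches and 3.71% ± 3.81 of the 2 kb on the H3K27ac side. H3K27ac ran the other way, with 4.75% ± 3.08, 41.2% ± 13.8 and 44.4% ± 17.8. H2AK119Ub covered 75.9% ± 3.95, 86.6% ± 2.50 and 57.0% ± 5.27. The stretch was covered more by H2AK119Ub than its H3K27ac side in 24 of 24 H2AK119Ub libraries, more than its H3K27me3 side in 23 of 24, and the H3K27me3 side more than the H3K27ac side in 24 of 24. H2AK119Ub peaks thus ran further toward the acetylated side than H3K27me3 peaks did, as the plot of coverage against distance shows. The TAT WT lists at 24 h covered 118.4 to 143.3 Mb with H2AK119Ub and 34.5 to 58.4 Mb with H3K27me3, and the part of that in the reach of the marks was not tested.

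**Figure D1:**
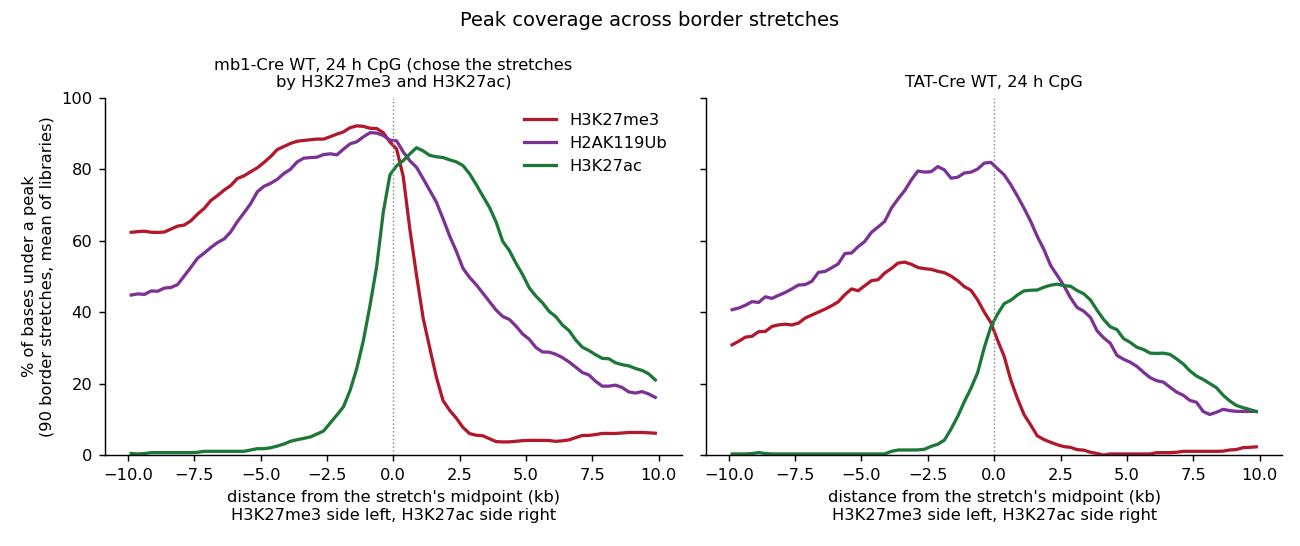
Share of bases under a peak (%) against the distance (kb) from the midpoint of the 90 border stretches, turned so that the H3K27me3 domain is on the left, as the mean of the WT libraries at 24 h, for the mb1 system (left, whose H3K27me3 and H3K27ac lists chose the stretches) and in the TAT system (right). H3K27me3 falls and H3K27ac rises across the midpoint, while H2AK119Ub is highest near it and falls later, with a mean of 57.0% over the 2 kb on the H3K27ac side in the TAT system.

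Borders with a start mostly had the H3K27me3 domain upstream of the gene. Of 128 stretches, 30 held a start, 37 lay in a gene body, 28 within 2 kb of a gene and 33 more than 2 kb from any gene of the table. The borders accounted for 24 of the 30 with a start. Over 26 genes with a start in these 24 borders, H3K27me3 ran on upstream of 19 and into the gene of 7, so that H3K27ac covered the gene side of 19. Where a border held starts of genes on opposite strands, as at Fyn, the pair counts once in the 19 and once in the 7. Those 19 included Rpl31 and Mrpl23, which encode proteins of the cytosolic and mitochondrial ribosome, Sec62, a subunit of the protein translocation machinery of the endoplasmic reticulum, Kdm3a, a demethylase of histone H3 lysine 9, Esrra, an orphan nuclear receptor of energy metabolism, and Fyn, a Src family kinase. The 7 with H3K27me3 on the gene side included Nr4a3, an immediate early orphan nuclear receptor, and Icam5, an adhesion molecule of neurons. Esrra, Fyn, Nr4a3 and Icam5 were picked as examples after their values were seen. The stretches with one domain inside the other were more often away from genes: 15 of 26 with H3K27ac inside and 7 of 12 with H3K27me3 inside had no gene within 2 kb, against 11 of 90 borders.

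The stretches touched 134 genes, of which 108 were protein-coding, 0.523% of the 20665 autosomal protein-coding genes. No gene of the lists for follicular and mature B cells (0 of 32), B cell activation (0 of 44), developmental Polycomb targets (0 of 67), housekeeping (0 of 15), Polycomb and Trithorax subunits (0 of 39), NK cells (0 of 10) or erythroid cells (0 of 8) touched one. Among lists with a hit were cell cycle and ribosome biogenesis (2 of 24), CDK inhibitors and tumour suppressors (1 of 10), plasma cells (1 of 12), T cells (1 of 19), myeloid cells (1 of 18) and Wnt, Notch, Hedgehog and TGF-beta signalling (1 of 49). The genes were Ccnd2, which encodes cyclin D2 of the G1 phase, Nop58, a core protein of small nucleolar ribonucleoproteins, Cdkn2c, an inhibitor of CDK4 and CDK6, Mzb1, a chaperone of immunoglobulin assembly, Il7r, the receptor chain for interleukin 7 of lymphoid precursors and T cells, Fcgr3, a low-affinity receptor for IgG, and Lef1, a DNA-binding partner of beta-catenin. Peaks over Fcgr3, H2-Q6 and Sfi1, which have near-identical relatives in the genome, can hold reads of those relatives, and no source used here says how such reads were placed.

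H2AK119Ub lay over these stretches in every group. Its peaks covered 72.2% to 97.5% of their bases in the 24 libraries, against 20.5% to 52.6% of the bases of H3K27me3-only stretches and 1.33% to 26.1% of H3K27ac-only stretches. In each of the 24 libraries the doubly marked stretches stood above both comparators of the same list, and their range did not overlap that of either comparator. The difference within a library was 49.6 ± 1.47 percentage points (SE, n = 24) from H3K27me3-only and 73.8 ± 1.36 from H3K27ac-only stretches. Each had a two-sided exact sign-flip permutation p of 1.19e-07, the smallest that 24 libraries can give, and a Benjamini-Hochberg value of 1.19e-06 over the 20 tests of library values. H2AK119Ub covered at least 50% of the stretch in 24 of 24 libraries for 41 of the 128, in at least 18 for 96 and in under 12 for 10. Borders had 61.1% to 96.8% of their bases under H2AK119Ub and the stretches with one domain inside the other 66.8% to 99.3%, with the borders lower in 12 of 24 libraries. The 2 kb beside the borders also stood above the comparators. Group means were 69.4% to 83.3% on the H3K27me3 side and 43.5% to 64.9% on the H3K27ac side. Lengths were not matched, with medians of 1528 bp for the 128, 9262 bp for H3K27me3-only and 6972 bp for H3K27ac-only stretches.

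**Figure D2:**
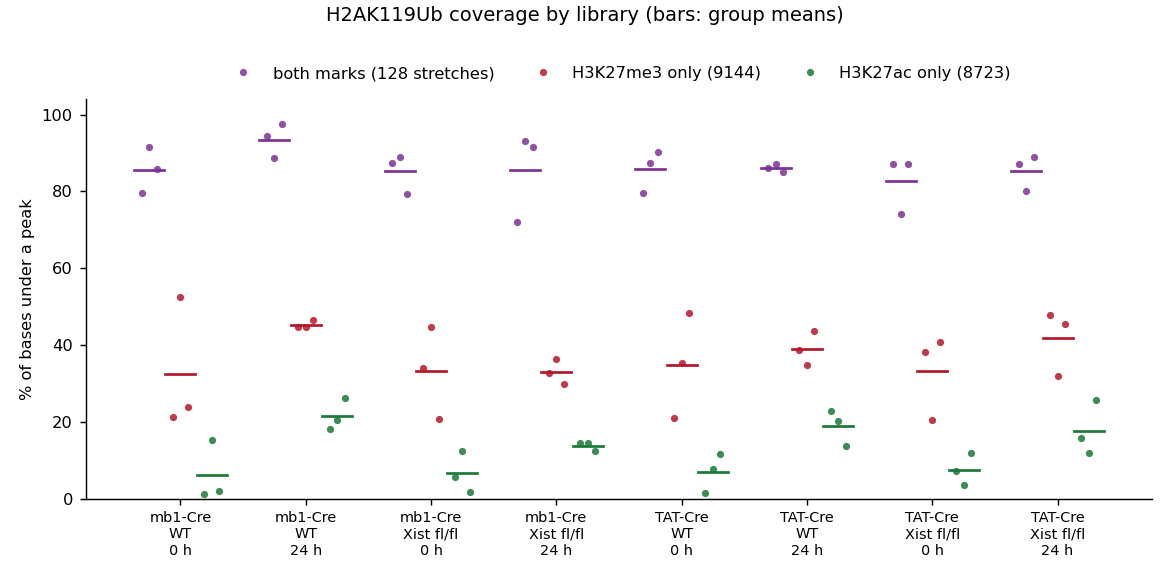
Share of bases under H2AK119Ub peaks (%) in each of the 24 libraries, by system, genotype and hours of CpG (points, with a bar at the group mean), over the 128 stretches with both marks (purple), 9144 H3K27me3-only (red) and 8723 H3K27ac-only stretches (green). Every purple point (72.2% to 97.5%) lies above every red point (20.5% to 52.6%) and every green point (1.33% to 26.1%).

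The peaks over these stretches ranked differently within their lists by mark. In mb1 WT lists at 24 h the strongest H2AK119Ub peak on a stretch had a median percentile of 90.7 by its highest signal, for 126 stretches with such a peak, and in TAT WT lists 95.1, for 124. H3K27me3 peaks had a median percentile of 77.2 and H3K27ac peaks of 54.5 in the mb1 WT lists that chose the stretches. Borders had lower ranks than the others, with 69.3 against 99.6 for H3K27me3 and 50.0 against 86.1 for H3K27ac, and a long domain has more chances of a high maximum.

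A group of 13 stretches carried all 3 marks nearly everywhere, in at least 75% of the libraries of each mark. They were singled out after their values were seen. They made up 79.5 kb, 23.5% of the bases, and 8 had no gene within 2 kb. The longest, chr9:3000001-3038325 (38325 bp), lay at the first sequenced bases of its chromosome and was wholly covered by H3K27me3 in 29 of 29 libraries, by H3K27ac in 24 of 24 and by H2AK119Ub in 23 of 24. Tmem267 (chr13:119595615-119603490), Hjurp (chr1:88276057-88280461), the gene for the chaperone that loads the centromeric histone CENP-A, and chr14:19415699-19419702 were of the same kind, with at least 50% covered by H3K27me3 in 29, 28 and 29 libraries and by H3K27ac in 24 each. In mb1 WT lists at 24 h the peaks on the 13 had median percentiles of 99.9 for H3K27me3, 99.9 for H2AK119Ub and 99.7 for H3K27ac. These values were near the top of the lists of 3 different antibodies, and no list of high-signal regions was used here. In all, 8 of the 128 stretches, 4 of them among the 13, began within the first 3.5 Mb of a chromosome, whose sequence starts at 3 Mb. Coverage summed over bases gives these long stretches much weight, so values without the 13 are given where they matter.

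**Figure D3:**
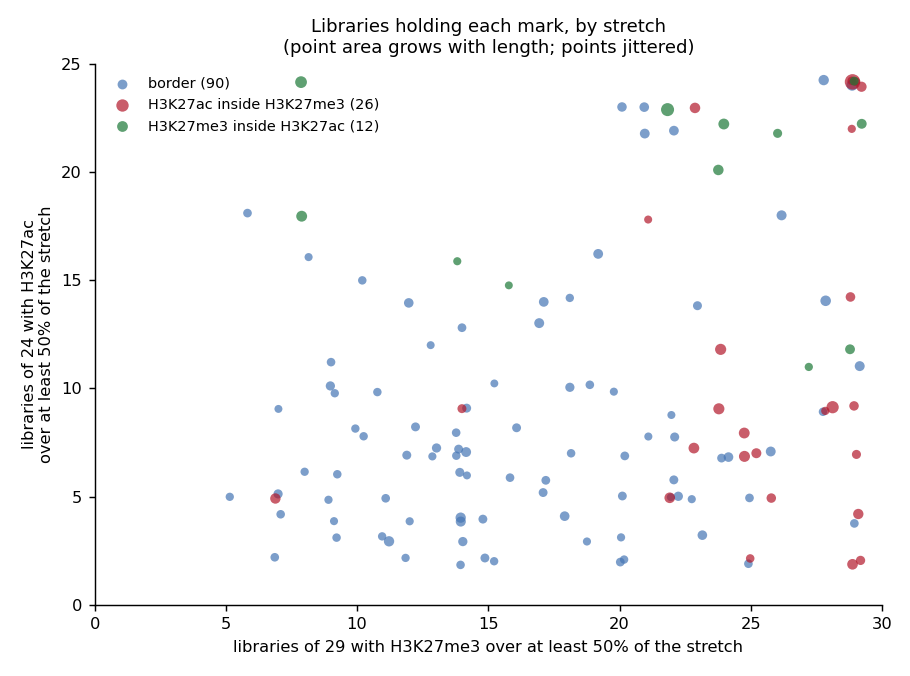
Number of H3K27me3 libraries (of 29, horizontal) and H3K27ac libraries (of 24, vertical) with at least 50% of a stretch under peaks, 1 point per stretch, coloured by the kind of overlap, with area growing with length and a small jitter. The points at the upper right are stretches marked nearly everywhere, while most borders had H3K27ac in few libraries, with a median of 7 of 24.

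The question of the comparison between groups was which of the 128 carried both marks in cells other than those that chose them. By the same kind of rule (H3K27me3 over at least 50% of the stretch in 2 of 3 libraries, or in 3 where a group had 4 or 5, and H3K27ac in 2 of 3), both marks were held by 76 (59.4%) in mb1 Xist fl/fl cells at 24 h, 35 (27.3%) in TAT WT and 24 (18.8%) in TAT Xist fl/fl cells at 24 h. At 0 h the number was 24 (18.8%) in mb1 WT, 21 (16.4%) in mb1 Xist fl/fl, 18 (14.1%) in TAT WT and 15 (11.7%) in TAT Xist fl/fl cells. Of the comparators, at most 0.115% held both marks in any group. They were picked to lack 1 of the 2 marks, so their choice made this share low. Counted by itself in mb1 Xist fl/fl cells at 24 h, H3K27me3 was held by 85.9% of the 128 and 90.1% of H3K27me3-only stretches. H3K27ac was held by 68.8% of the 128 and 86.4% of H3K27ac-only stretches. In TAT cells at 24 h, H3K27me3 shares were 43.8% and 29.7% in WT and 48.4% and 32.6% in Xist fl/fl. The H3K27ac shares were 44.5% and 66.0% in WT and 22.7% and 32.5% in Xist fl/fl. In all 7 other groups both marks were held by 10 stretches, and in none by 42. Without the 13 that were marked nearly everywhere, the numbers of 115 were 64 in mb1 Xist fl/fl, 23 in TAT WT and 13 in TAT Xist fl/fl cells at 24 h and 4 to 12 at 0 h.

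**Figure D4:**
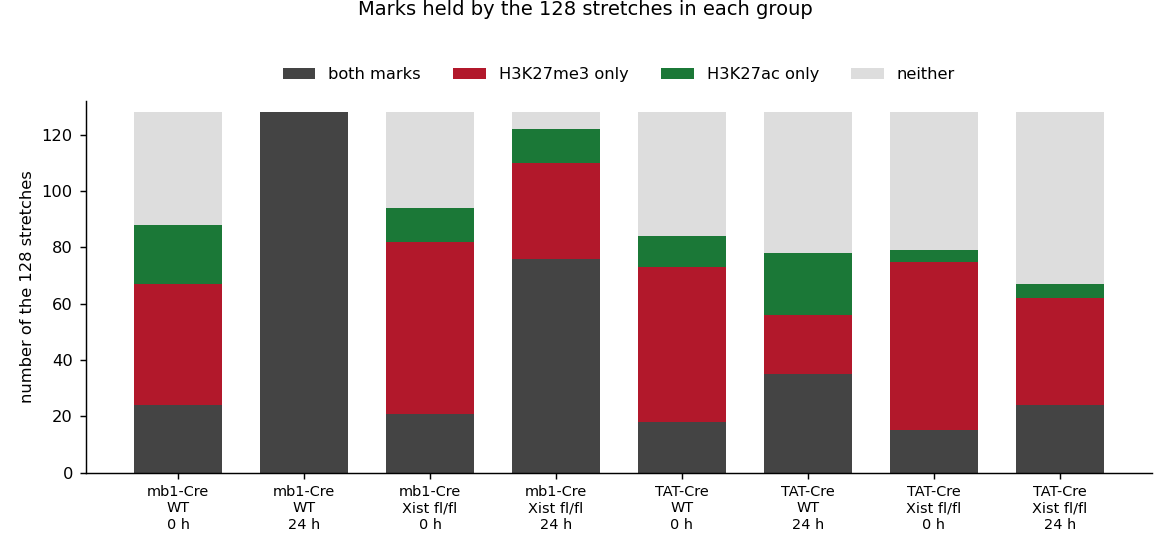
Number of the 128 stretches (vertical) with both marks, H3K27me3 only, H3K27ac only or neither, in each system, genotype and time; mb1 WT at 24 h chose them and so holds all 128. H3K27me3 without H3K27ac was the most frequent of the 3 marked states in every 0 h group, with 43 to 61 stretches.

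Before CpG the Polycomb mark alone was more frequent than H3K27ac alone or both marks. H3K27me3 lists at 0 h also covered more of the autosomes, with group means of 80.2 to 102.2 Mb against 32.2 to 65.9 Mb for H3K27ac. The part of list length in this order was not tested. In mb1 WT cells at 0 h, 43 had H3K27me3 only, 21 H3K27ac only, 24 both and 40 neither. Each mark's share of the 128 at 0 h is set here beside that of its own comparator. For H3K27me3 it was 52.3% against 42.0% in mb1 WT and 64.1% against 52.1% in mb1 Xist fl/fl cells. In TAT cells it was 57.0% against 58.6% (WT) and 58.6% against 57.7% (Xist fl/fl). For H3K27ac it was 35.2% against 46.4% and 25.8% against 33.0% in mb1 cells. In TAT cells it was 22.7% against 25.9% and 14.8% against 13.8%, so both marks were near their comparators there. Of 61 stretches with H3K27me3 only in mb1 Xist fl/fl cells at 0 h, 34 held both marks at 24 h, 20 still H3K27me3 only, 4 H3K27ac only and 3 neither. In TAT WT cells the same count was 16 of 55 with both marks, and in TAT Xist fl/fl cells 6 of 60, with 17 and 20 left with neither. Fewer TAT peaks at 24 h, given above, move with these counts, and their part in them was not tested. The rule asked for both marks in mb1 WT cells at 24 h and for nothing at 0 h. The choice itself thus leans toward both marks at 24 h, most of all in mb1 cells, and these counts do not remove that lean.

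At Atf3, a stress-induced transcription factor gene (chr1:191181192-191187956, 6765 bp, with the start shown above), an H3K27ac domain appeared inside H3K27me3. H3K27me3 covered 100% of it in all 15 libraries at 0 h. H2AK119Ub covered 90.3% to 100% in all 24 libraries. H3K27ac covered 0% in all 12 libraries at 0 h, 82.4%, 100% and 92.3% in mb1 Xist fl/fl, 62.5%, 0% and 100% in TAT WT and 0%, 0% and 85.7% in TAT Xist fl/fl libraries at 24 h. In the lists as deposited outside mb1 WT, H3K27ac was present in 6 of 9 libraries at 24 h and 0 of 9 at 0 h. The exact stratified p was 0.01 and the Benjamini-Hochberg value 0.054. At 24 h H3K27me3 covered 31.3%, 73.6%, 59.1% and 100% in mb1 Xist fl/fl, 67.7%, 0% and 100% in TAT WT and 24.3%, 100% and 30.4% in TAT Xist fl/fl libraries. It was thus lower than at 0 h in 7 of these 10 libraries.

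At Lrrc32 (chr7:98484715-98491571, 6857 bp in the gene body), which encodes GARP, the docking receptor of latent TGF-beta, the times were fully apart for H3K27ac. Its peaks covered 0% in all 12 libraries at 0 h and 77.7% to 100% in all 12 at 24 h. Outside mb1 WT this was 9 of 9 against 0 of 9 libraries, with an exact stratified p of 0.00025 and a Benjamini-Hochberg value of 0.0154 in the lists as deposited. H2AK119Ub stayed over 96.3% to 100% in all 24 libraries. H3K27me3 covered 68.0% to 100% in all 15 libraries at 0 h, and at 24 h 74.2% to 100% in mb1 Xist fl/fl libraries but 0%, 0% and 76.5% in TAT WT and 19.2%, 4.2% and 0% in TAT Xist fl/fl libraries.

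Ccnd2 (chr6:127152684-127153348, 665 bp in the gene body) changed in the same way at a border. H3K27ac covered 0% in all 12 libraries at 0 h, and at 24 h 100%, 67.5% and 58.8% in mb1 Xist fl/fl, 100%, 63.5% and 74.9% in TAT WT and 100%, 0% and 0% in TAT Xist fl/fl libraries. It was present in 7 of 9 against 0 of 9 libraries outside mb1 WT in the lists as deposited (exact stratified p of 0.0025, Benjamini-Hochberg value of 0.0288). H3K27me3 was present in 10 of 11 such libraries at 0 h and in 3 of 10 at 24 h (exact stratified p of 0.01, Benjamini-Hochberg value of 0.66), and H2AK119Ub in 23 of 24 libraries. With lists trimmed to equal length, which here means the same number of peaks, Atf3, Lrrc32 and Ccnd2 were not called for H3K27ac over time. The deposited mb1 Xist fl/fl H3K27ac lists had 3107 to 4731 peaks at 0 h and 7409 to 10215 at 24 h. The choice of these stretches also asked for H3K27ac in mb1 WT cells at 24 h and for nothing at 0 h, so it leans toward 24 h.

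Other genes showed other orders. At Nr4a3 (chr4:48044606-48048118, 3513 bp), described after its values were seen, H3K27me3 covered 65.8% to 100% in all 15 libraries at 0 h, and H3K27ac was already there, with 100% in all 3 mb1 WT libraries and 78.3%, 100% and 100% in mb1 Xist fl/fl libraries. At Lef1 (chr3:131113743-131114829, 1087 bp in the gene body) H2AK119Ub covered 100% in 24 of 24 libraries and H3K27ac 0% in all but 2 libraries, both of mb1 WT at 24 h. Fcgr3 (chr1:171063089-171067396, 4308 bp) had H3K27me3 over at least 72.4% in 29 of 29 libraries and H3K27ac in only 4 of 24, of which 3 were mb1 WT at 24 h. At Cdkn2c (chr4:109656147-109660378, 4232 bp) H2AK119Ub covered 76.6% to 100% in 24 of 24 libraries, while H3K27me3 was present in 14 of 29 and H3K27ac in 4 of 24. For Lef1 and Fcgr3 the overlap was thus seen almost only with the H3K27ac lists that chose it.

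Over all 128, H3K27ac coverage was higher at 24 h than at 0 h outside mb1 WT, and by less than at other acetylated stretches. Its peaks covered 46.1% ± 5.72 (SD, n = 3) of the bases at 0 h and 69.1% ± 5.78 at 24 h in mb1 Xist fl/fl, 41.3% ± 6.55 and 57.3% ± 14.5 in TAT WT, and 38.6% ± 6.17 and 44.8% ± 8.62 in TAT Xist fl/fl cells. The mb1 Xist fl/fl libraries of the times did not overlap, and those of both TAT genotypes did. The mean difference was 15.1 ± 3.99 percentage points (SE), with a two-sided exact stratified permutation p of 0.00425 and a Benjamini-Hochberg value of 0.0158. Set against H3K27ac-only stretches of the same list the difference was −10.7 ± 3.31 (p of 0.0045, Benjamini-Hochberg value of 0.0158), and without the 13 stretches marked nearly everywhere it was −5.39 (exact permutation p of 0.106). With lists trimmed to equal length the change over time was −5.12 (exact permutation p of 0.0505). Its direction was thus not the same when lists had the same number of peaks, which need not cover the same number of bases. The rule asked for peaks at 24 h of CpG and for nothing at 0 h, so the choice itself leans toward 24 h in other CpG groups. Leaving out mb1 WT does not remove this lean, and the H3K27ac-only stretches were chosen by the same lists.

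H3K27me3 coverage showed no common direction over time. It was 72.5% ± 14.4 (SD, n = 5) at 0 h and 88.0% ± 6.86 (n = 4) at 24 h in mb1 Xist fl/fl cells, and 65.4% ± 3.34 and 55.7% ± 15.9 (n = 3) in TAT WT and 65.6% ± 8.49 and 59.4% ± 6.48 in TAT Xist fl/fl cells. The mean difference was −0.14 ± 4.46 percentage points (exact stratified permutation p of 0.98). With lists trimmed to equal length it was −8.23 (exact permutation p of 0.00946). H2AK119Ub differed between times by 2.75 ± 2.62 points (exact stratified permutation p of 0.285), and by −7.57 with trimmed lists (exact permutation p of 0.00321).

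**Figure D5:**
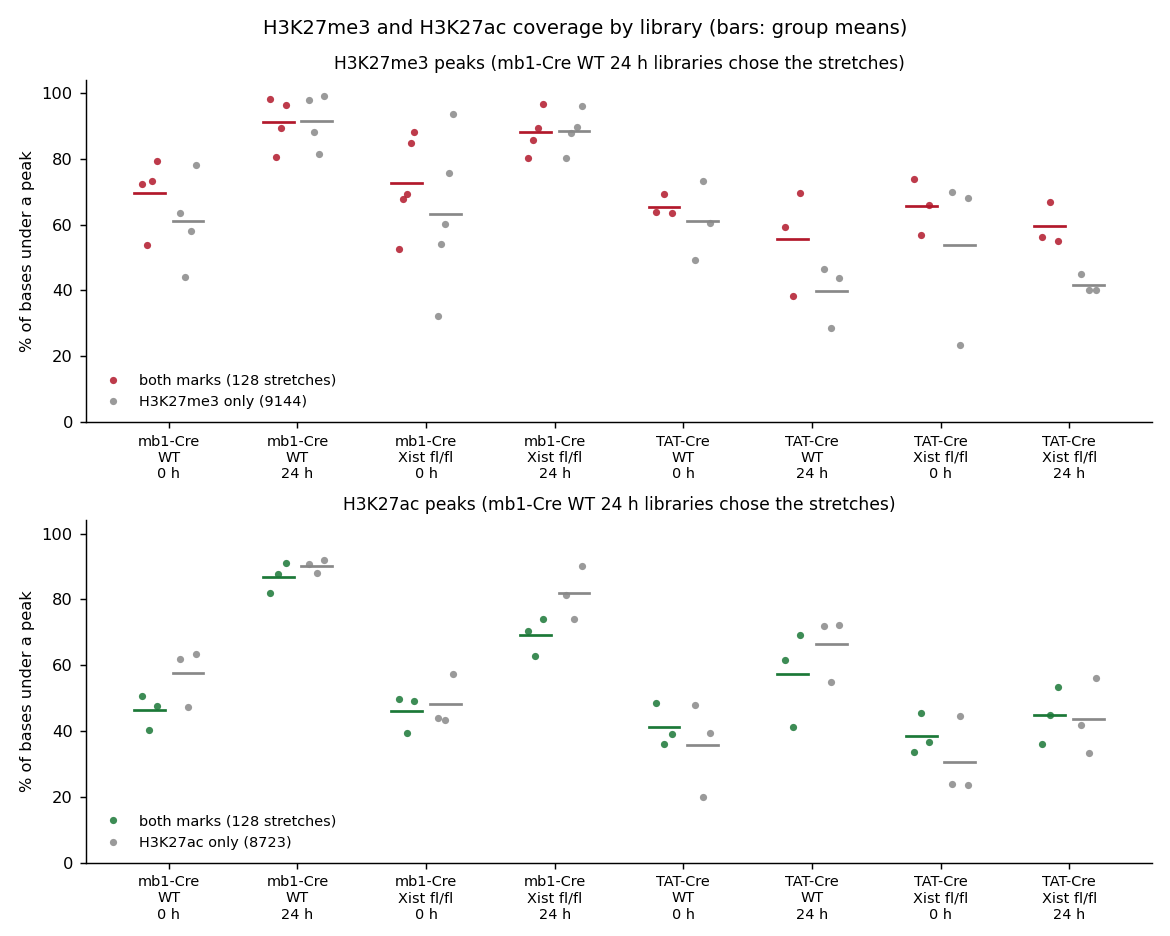
Share of bases under H3K27me3 peaks (upper panel, %) and H3K27ac peaks (lower panel, %) in each library by system, genotype and hours of CpG, over the 128 stretches (coloured) and the H3K27me3-only or H3K27ac-only stretches (grey), with bars at group means. Outside mb1 WT the H3K27ac means at 24 h (44.8% to 69.1%) lie above those at 0 h (38.6% to 46.1%), while the H3K27me3 means are higher at 24 h in the mb1 system and lower in the TAT system.

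Single stretches were compared by presence, with the p adjusted over all of the 17995 stretches that could be tested, those present in at least 3 and absent in at least 3 libraries. A stretch counted as present where peaks covered at least 50% of it. For changes over time only the peaks with the most total signal were kept in each list, as many as the mark's shortest list held (1955, 2004 and 1336 for H3K27me3, H2AK119Ub and H3K27ac), so that presence is a rank within the list. H2AK119Ub was called in 24 of 75 stretches tested, against a background of 29.6% of all 2754 stretches tested, which is close to the 32% here, with 18 lower and 6 higher at 24 h. In lists as deposited 1 of 63 was called (background 13.4%). Sec62 (chr3:30791747-30793367) was among the top 2004 peaks in 12 of 12 libraries at 0 h and 0 of 12 at 24 h (Benjamini-Hochberg value of 0.000506, exact stratified test), and in the deposited lists H2AK119Ub was present in 12 and 7. By the same rank, Golph3, a Golgi phosphoprotein gene, went from 11 to 0 libraries (0.000782), and Kdm3a from 10 to 0 and Il7r from 12 to 2 (0.00191 each). The border over Lyl1 and Nfix (chr8:84705064-84706279), genes of a helix-loop-helix factor and a nuclear factor I protein, went from 1 of 12 to 11 of 12 (0.00191). The border beside Grin2d and Kdelr1 rose from 0 to 9 (0.00532) and Afap1l2 from 2 to 10 (0.02). Without a gene within 2 kb, chr9:124256270-124258037 rose from 3 to 12 (0.00387) and chr11:3100004-3104787 from 0 to 7 (0.0126). All these counts are ranks among the top 2004 peaks. In the deposited lists of both times, H2AK119Ub was present in 22 of 24 libraries at Golph3, 20 at Il7r and 15 at Kdm3a. The deposited counts were 20 at Lyl1 and Nfix, 20 at chr11:3100004-3104787, 19 at Grin2d and Kdelr1, 17 at Afap1l2 and 15 at chr9:124256270-124258037. With limma, 39 of 75 were called (background 60.5%).

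H3K27ac was called over time in 1 of 20 stretches tested in trimmed lists (background 20.4%), chr11:3100004-3104787, in 9 of 9 libraries at 0 h and 1 of 9 at 24 h. In lists as deposited 4 of 76 were called (background 12.5%), all higher at 24 h: Lrrc32, Crebzf, Ccnd2 and Leng8, of which Crebzf and Leng8 are named after their values were seen. With limma 10 of 20 were called (background 51.6%). H3K27me3 was called over time in 0 of 62 by the exact test (background 0%). At an unadjusted p under 0.05, 12 of 62 (19.4%) were lower at 24 h against 5.35% of all 2970 tested, and 1 was higher against 3.16%. With limma 7 of 62 were called (background 2.42%). Atf3 and Lrrc32 had the smallest values there, with H3K27me3 among the top 1955 peaks in 11 of 11 libraries at 0 h and 2 of 10 at 24 h each (Benjamini-Hochberg value of 0.129 by the exact stratified test for both).

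The genotype comparison asked whether the loss of Xist, an X-linked RNA, went with a change at these autosomal stretches, in mb1 cells at 0 h and TAT cells at 24 h and, for H2AK119Ub, also mb1 cells at 24 h. No difference passed the threshold. H2AK119Ub covered 85.3% ± 5.16 (SD, n = 3) in Xist fl/fl and 85.6% ± 5.90 in WT mb1 cells at 0 h, 85.6% ± 11.7 and 93.5% ± 4.48 at 24 h, and 85.4% ± 4.66 and 86.0% ± 1.07 in TAT cells at 24 h. In each pair the ranges of the libraries overlapped. The mean difference was −3.00 ± 2.98 points (SE, exact stratified permutation p of 0.353). H3K27me3 differed by 3.28 ± 6.51 (p of 0.614) and H3K27ac by −6.34 ± 5.36 (p of 0.285), both by the same exact permutation. Set against H3K27ac-only stretches, the H3K27ac difference was 9.65 ± 3.94 in the other direction, with an exact permutation p of 0.025 and a Benjamini-Hochberg value of 0.0625. The H3K27ac lists of Xist fl/fl cells covered less, with means of 52.2 against 65.9 Mb in mb1 cells at 0 h. In TAT cells at 24 h the means were 42.4 against 70.7 Mb. The part of list length in this difference was not tested.

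By single stretches the exact stratified test called 0 of 53 for H2AK119Ub (background 0%), 0 of 82 for H3K27me3 (background 0%) and 0 of 49 for H3K27ac (background 0%). At an unadjusted p under 0.05 it found 0 of 53 higher (background 0.067%) and 0 lower (background 0.576%) for H2AK119Ub, 2 of 82 higher (background 0.775%) and 0 lower (background 0.148%) for H3K27me3, and 0 of 49 higher (background 0%) and 0 lower (background 0.933%) for H3K27ac. The 2 were the border beside H2-Q6, where 5 of 8 Xist fl/fl libraries and 0 of 7 WT libraries had H3K27me3, and chr13:64155446-64156939, with 6 of 8 and 1 of 7, both named after their values were seen. With limma 0 of 53, 0 of 82 and 0 of 49 were called (backgrounds of 0%, 0% and 0.0259%). In mb1 cells at 24 h, whose WT lists chose the stretches, H3K27ac covered 69.1% ± 5.78 in Xist fl/fl and 86.8% ± 4.53 in WT cells and H3K27me3 88.0% ± 6.86 and 91.1% ± 7.97, given without a test.

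Between the systems, the difference of TAT from mb1 cells was −13.2 ± 3.73 points (SE) for H3K27me3 (exact stratified permutation p of 0.0144, Benjamini-Hochberg value of 0.0412) and −12.3 ± 3.04 points for H3K27ac (p of 0.00475, Benjamini-Hochberg value of 0.0158 by the same exact permutation). The gap was largest at 24 h, where Xist fl/fl cells had 59.4% against 88.0% for H3K27me3 and 44.8% against 69.1% for H3K27ac, without overlap of the libraries. H2AK119Ub differed by −2.52 ± 2.62 (exact permutation p of 0.325). Relative to H3K27ac-only stretches of the same list the H3K27ac difference was 13.6 ± 3.25 in the other direction (exact permutation p of 0.0005, Benjamini-Hochberg value of 0.00333), and with trimmed lists the differences were −1.29 for H3K27me3 and 4.23 for H3K27ac (exact permutation p of 0.547 and 0.0838). The systems differed in transgene, in TAT-cre treatment at 24 h and in list length, which cannot be told apart here. The stretches and their comparators were also chosen by lists of mb1 cells at 24 h. The choice itself thus leans toward mb1 over TAT cells, most of all at 24 h, and these p-values do not remove that lean.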

How the data were processed

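CUT&RUN libraries of H3K27me3 (29), H2AK119Ub (24) and H3K27ac (24) were used as peak lists on mm10. The deposited lists, in the 6-column layout of the caller SEACR, give the authors' total and highest signal of each peak; no source used here says how that signal was scaled or whether a control track was used. The submitters' processing notes name Trimmomatic 0.32, Bowtie2 2.3.4.1, Picard and deepTools 3.5.1. Peaks were called per library. The mb1 Xist fl/fl H3K27me3 replicate 5 is titled 0 h but has a treatment entry of the stimulated cells, and was grouped by its title.

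The members, gene lists and tests were chosen with earlier results of these data known. Stretches were built from the bases covered by the stated number of lists, and genes within 2 kb were taken from RefSeq. Named genes are those of the 12 longest stretches, the 5 longest of each kind of overlap, up to 4 of each gene list, the 5 stretches with the smallest p in each direction for H2AK119Ub by genotype and by time, and up to 5 held in the most groups; others are marked as chosen after their values were seen. 1 gene named by this rule is not reported here. Library values are the share of the 128 stretches' bases under peaks, alone and minus a comparator, tested by two-sided exact permutation within groups that share system, genotype or time, with Benjamini-Hochberg adjustment over 20 tests. Strata holding the lists that chose the stretches were left out for H3K27me3 and H3K27ac. Single stretches were tested by an exact stratified test of presence, with limma 3.58.1 (R 4.3.3) on the covered percent as another tool, and both were tested on simulated data. Genotype tests used the deposited lists, and time tests lists trimmed to an equal number of peaks by total signal. Alternatives were other length and list rules, trimmed or halved lists, each library left out, replicate 5 moved and a replicate block. Python 3.11.15, numpy 2.4.6, pandas 2.3.3 and scipy 1.17.1 were used.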

Additional observations from a re-analysis of the deposited data

Results flagged for a closer look

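The change of H3K27me3 coverage from 0 h to 24 h differed between the systems in Xist fl/fl cells. It was −6.19 percentage points in TAT and 15.5 in mb1 cells, a difference of −21.7, with an exact permutation p of 0.0468 and a Benjamini-Hochberg value of 0.953 over 22 such differences, so it did not pass the correction. Outside the autosomes, the same rule found 9 stretches on X, beside 333 with H3K27me3 only and 132 with H3K27ac only. It also found 4 on patch and unplaced sequences, on 4 different sequences. Neither set entered a comparison. No H3K27me3 library stood apart from its group in the 4 groups of 4 or 5 libraries that could be checked.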

How the results depend on the processing

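Over the alternatives that left out no single library, 157 values kept their direction and their side of the threshold, 24 changed direction, 7 no longer passed, 3 newly passed and 9 counts moved by over 1.5 times. The excess of H2AK119Ub over both comparators kept its direction and its call in every alternative run. With lists trimmed to equal length, H3K27me3 changed over time by −8.23 (exact permutation p of 0.00946) and by −5.08 against its comparator, and differed between systems by −1.29 (p of 0.547) and 15.4 against the comparator (exact permutation p of 0.00216). H2AK119Ub then changed over time by −7.57 and by −5.55 against the comparator (exact permutation p of 0.0235), and its values against the comparator were −1.75 for genotype and 1.39 for system. H3K27ac values were then 4.33 for genotype, −5.12 for time and 4.23 for system. With only the upper 50% of every list, ranked on highest signal, H3K27me3 gave 0.382 for time and −8.89 for system (exact permutation p of 0.113), H2AK119Ub 0.162 for system and, against its comparator, −0.668 for genotype and 0.548 for time, and H3K27ac −4.98 for system (exact permutation p of 0.118); 54 stretches were left. Asking for all 4 and all 3 lists left 45 stretches, with H3K27me3 at 1.91 for time and, against comparators, −0.347 for genotype and −2.66 for H2AK119Ub genotype. Counting stretches at least 50% covered gave −1.29 for H3K27me3 genotype against its comparator and 1.58 for time, and stretches of at least 1 kb gave −0.152 for H2AK119Ub genotype against its comparator. H3K27me3 over time was 1.17 with replicate 5 moved to 24 h.

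Every correlation of same-numbered libraries was over 0.1 in 0 of 7 genotype, 10 system and 10 time strata, a rule that 1 low pair fails. Between genotypes in mb1 cells at 0 h, replicates 2 and 3 gave 0.490 and 0.382 for H2AK119Ub and 0.343 and 0.370 for H3K27ac. Replicate 1 gave −0.118 and −0.166. For H3K27me3, replicates 1 to 4 gave −0.142, 0.131, 0.127 and 0.377. The check thus does not settle whether the numbers pair libraries. A replicate block gave 1.16 for H3K27me3 time and −8.07 for H3K27me3 system (exact permutation p of 0.203). Chosen after seeing the data, leaving out the 13 stretches marked nearly everywhere gave 0.0342 for H3K27me3 time and, against H3K27ac-only stretches, 7.61 for H3K27ac genotype and −5.39 for time. Borders alone gave 1.77 for H3K27me3 time, 0.742 for H2AK119Ub time against its comparator and 7.58 for H3K27ac genotype against its comparator. Without the H2AK119Ub lists under 3000 peaks, H2AK119Ub over time was −0.21, and 1.74 against its comparator. Calls over time were 12 for H2AK119Ub and 0 for H3K27ac without the filter on libraries, 1 and 4 with deposited lists, and 39, 10 and, for H3K27me3, 7 with limma. The cause of these changes was not tested.

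With each of the 7 lists of the rule left out in turn, the number of stretches was 80 to 100. The rule then asked for every remaining list of that mark. With each library left out in turn, calls over time were 23 to 29 for H2AK119Ub. For H3K27ac they were 1 to 5, the highest without TAT WT 0 h replicate 3. Values were −1.06 to 6.71 for H3K27me3 genotype, −1.13 to 3.53 against its comparator, −2.43 to 2.75 for H3K27me3 time, −2.36 to 2.19 for H2AK119Ub genotype against its comparator, 1.38 to 4.43 for H2AK119Ub time (past an exact permutation p of 0.05 only without mb1 Xist fl/fl 24 h replicate 1) and 6.996 to 12.1 for H3K27ac genotype against its comparator.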
